A study of Mus musculus with 32 samples.

Results

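The Mettl3 knockout was compared with its control in chromatin-associated RNA of mouse embryonic stem cells, through the 4 m6A peak lists of 2 control and 2 knockout libraries. These lists held 164448 of the 496760 peaks of the 16 lists in the series, with peaks on spike-in RNA set aside. Peaks of the 4 lists that overlapped by at least 1 base on the same strand were merged into 59521 regions. A region was called lost where both controls and neither knockout had a peak, gained where both knockouts and neither control had one, and retained where all 4 had one. The controls and the knockouts were C57BL/6 embryonic stem cells, both grown in serum-containing medium with LIF at 1000 U/ml, the GSK3 inhibitor CHIR99021 at 3 µM and the MEK inhibitor PD0325901 at 1 µM. The titles call the knockout CKO and the other group Control. The labels give neither the way nor the completeness of the deletion, and do not say whether replicates came from separate cultures, so the spread between replicates may be technical. Chromatin-associated RNA was depleted of ribosomal RNA, mixed with a pair of spike-in control RNAs, fragmented and enriched with the m6A antibody of the EpiMark kit. The sequenced inputs were not used here.

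METTL3 is the catalytic subunit of the nuclear complex that writes N6-methyladenosine (m6A) into RNA while it is transcribed, and METTL14 is its RNA-binding partner. In messenger RNA the mark lies mostly in the DRACH sequence context, whose common core is GGAC, and is densest near the stop codon and in the 3′ untranslated region. On chromatin the reader YTHDC1 binds m6A, and RNA bearing the mark has been tied to the turnover of nuclear transcripts and to the chromatin state. A peak states that the antibody enriched an RNA stretch above the background the authors' caller used. Its presence does not measure the methylated share of the molecules. The depth of the libraries is unknown, and less methylation, less RNA per cell and fewer cells with the RNA cannot be told apart from a missing peak.

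Sequences around transcript starts are shown for the lost and the gained regions with the highest lower fold enrichment over the first 50 bases of an annotated transcript, 3 of each, chosen after their values were seen. They show the sequence around these starts, which the regions covered only in part: 27 of the 300 bases at Retreg3, 80 at Pdzd8, 23 at Wbp1, 199 at Arf3, 5 at Gtf2b and 90 at Dock9. Each window comes from RefSeq (GRCm38.p6), runs 5′ to 3′ along the gene over 250 bases before and 50 after the start, and has every GGAC in capitals, searched on the transcribed strand only. GGAC copies cannot overlap one another. The windows of the lost regions follow.
Retreg3, chr11:101119792-101120091, minus strand: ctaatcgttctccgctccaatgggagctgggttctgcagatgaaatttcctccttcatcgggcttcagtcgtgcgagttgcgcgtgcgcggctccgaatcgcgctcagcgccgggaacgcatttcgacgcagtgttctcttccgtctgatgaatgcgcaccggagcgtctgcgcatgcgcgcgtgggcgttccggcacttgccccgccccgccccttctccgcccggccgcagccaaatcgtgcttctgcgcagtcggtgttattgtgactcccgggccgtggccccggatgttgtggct
Pdzd8, chr19:59345731-59346030, minus strand: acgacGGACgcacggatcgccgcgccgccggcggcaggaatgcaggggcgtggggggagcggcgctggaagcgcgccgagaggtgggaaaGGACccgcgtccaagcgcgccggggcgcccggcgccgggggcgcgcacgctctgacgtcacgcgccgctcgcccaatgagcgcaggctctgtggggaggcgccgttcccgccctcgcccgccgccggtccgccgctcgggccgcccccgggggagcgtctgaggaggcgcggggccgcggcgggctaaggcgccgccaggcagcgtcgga
Wbp1, chr6:83121412-83121711, minus strand: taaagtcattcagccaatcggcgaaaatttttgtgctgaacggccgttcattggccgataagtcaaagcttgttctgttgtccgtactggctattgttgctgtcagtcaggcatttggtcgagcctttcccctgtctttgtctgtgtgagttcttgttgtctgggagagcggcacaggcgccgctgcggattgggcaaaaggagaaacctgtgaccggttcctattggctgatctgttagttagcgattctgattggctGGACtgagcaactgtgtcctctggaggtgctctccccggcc
The windows of the gained regions follow.
Arf3, chr15:98762943-98763242, minus strand: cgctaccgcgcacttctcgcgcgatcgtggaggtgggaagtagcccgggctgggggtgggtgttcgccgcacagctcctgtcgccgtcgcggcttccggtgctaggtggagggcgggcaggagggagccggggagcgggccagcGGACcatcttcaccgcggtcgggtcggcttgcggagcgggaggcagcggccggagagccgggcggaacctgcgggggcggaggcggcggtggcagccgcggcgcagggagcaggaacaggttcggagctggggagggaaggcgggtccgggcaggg
Gtf2b, chr3:142764997-142765296, plus strand: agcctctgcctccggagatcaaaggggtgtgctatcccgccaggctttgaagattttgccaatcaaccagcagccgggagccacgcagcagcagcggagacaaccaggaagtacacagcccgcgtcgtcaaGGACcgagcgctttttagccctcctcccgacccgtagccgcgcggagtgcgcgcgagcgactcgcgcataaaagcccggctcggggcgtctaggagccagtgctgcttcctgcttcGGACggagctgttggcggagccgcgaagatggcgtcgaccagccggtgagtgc
Dock9, chr14:121797685-121797984, minus strand: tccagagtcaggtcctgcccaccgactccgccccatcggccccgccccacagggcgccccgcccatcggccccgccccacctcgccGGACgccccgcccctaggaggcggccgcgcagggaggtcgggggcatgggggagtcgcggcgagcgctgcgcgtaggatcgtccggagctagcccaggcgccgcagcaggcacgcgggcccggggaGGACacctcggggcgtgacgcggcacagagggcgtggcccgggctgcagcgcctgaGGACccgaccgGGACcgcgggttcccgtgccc

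The region over the start of Retreg3, an ER-phagy receptor gene, had a fold enrichment of 7.92 in control 1 and 7.99 in control 2. The region at Pdzd8, which encodes an endoplasmic reticulum tether protein, had 7.80 and 8.12, and that at Wbp1 had 7.34 and 8.42. No knockout had a peak in any of these 3 regions. The region over the start of Arf3, a small GTPase gene, had 6.995 in knockout 1 and 8.44 in knockout 2. That at Gtf2b, which encodes the general transcription factor TFIIB, had 6.99 and 7.10, and that at Dock9 had 6.98 and 9.72. No control had a peak there. GGAC stood within the 50 transcribed bases at Wbp1 and Dock9 but not at the other 4 starts. Within the bases shared with the region, Dock9 held 3 copies, Arf3 held 1 and the others none. Over all start windows of the table, 18.9% of 32851 held GGAC in those 50 bases and 65.6% in the full 300. The share in the 50 bases was 29.8% of 57 windows under lost regions, 20.5% of 176 under gained regions and 21.3% of 1515 under retained regions. These shares describe letters in the windows, not methylated sites.

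Annotated microRNA hairpins overlapped 3 lost, 6 gained and 50 retained regions and 24 with none of these calls. The retained regions held 54 of the 1005 hairpins of the RefSeq table. Over all regions, 16.4% of those with peaks in both controls were lost and 16.9% of those with peaks in both knockouts gained. These shares were not computed for hairpin regions. The mature microRNAs of the 3 hairpins under lost regions are printed with the seed, bases 2 to 8, in capitals, because the seed sets which messages a microRNA pairs with. No seed was shared among them.
mmu-miR-5114: aCUGGAGAcggaagcugcaaga
mmu-miR-7042-3p: uGUCCCUUuguuuucucucag
mmu-miR-8105: aGGCGACUggcgagacccgaag
Of the 9 hairpins under lost or gained regions, only that of Mir6956, at chr15:79002223-79002284 on the plus strand, held GGAC, given in capitals.
Mir6956: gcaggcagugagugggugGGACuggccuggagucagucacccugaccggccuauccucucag
The region over Mir5114, inside the fatty acid desaturase gene Scd2, had folds of 2.20 in control 1 and 2.53 in control 2. The region over Mir7042 had 7.63 and 6.39, and the region over Mir8105 had 6.32 and 4.23. None had a peak in a knockout. The region over Mir6956 had 4.81 in knockout 1 and 6.41 in knockout 2 and no peak in a control. These peaks lay on longer chromatin RNA than the hairpins, so they do not show marked microRNAs.

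Most m6A regions of the controls were found again in the knockouts, and about as many regions appeared as disappeared. Of the 32347 regions with a peak in both controls, 23821 (73.6%) were retained and 5303 were lost, a share of 16.4%. Of the 33980 regions with a peak in both knockouts, 5756 were gained, a share of 16.9%. Another 3223 regions had peaks in both controls and 1 knockout, and 4403 had peaks in both knockouts and 1 control. These regions missed a call by 1 library. At the level of genes, from summits in the body of 1 gene alone, 620 of 10502 genes were lost (5.9%), 515 of 10286 were gained (5.01%) and 9323 were retained. Where 1 library alone decided for its group, counts rose, as fewer libraries must concur. Lost regions came to 8551 without control 1. Gained regions came to 9420 without knockout 1 and 11976 without knockout 2. Lost genes came to 974 without knockout 1, and gained genes to 813 without control 2 and 924 without knockout 2. With each list limited to its 20000 strongest peaks, 938 genes were lost.

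Peaks on markers of the labelled cell type were present in all libraries, which does not establish cell identity. In each, 7 of 8 pluripotency markers (Nanog, Pou5f1, Esrrb, Zfp42, Tfcp2l1, Dppa5a and Tdgf1) had a peak. Sox2 shares its locus with another gene and could not be assigned. Of 8 feeder fibroblast markers, 2 and 3 had a peak in the controls against 5 and 6 in the knockouts. Their summed fold was 10.1 and 16.03 in the controls against 29.6 and 40.1 in the knockouts, with Lum and Postn at no peak throughout. The summed fold of the pluripotency markers was 38.5 and 36.6 in the controls against 56.4 and 44.0 in the knockouts. Primitive endoderm markers numbered 2, 2, 1 and 1 of 5 in the order control 1, control 2, knockout 1 and knockout 2, and trophoblast markers 3 of 5 in every library. The targeted gene gives no check of the deletion, since a peak is no measure of RNA. Mettl3 itself kept 1 region, chr14:52300079-52300484, with folds of 4.16 and 6.82 in the controls against 4.26 and 4.64 in the knockouts. Its 3 other regions each had a peak in 1 control and in no knockout. Their folds were 3.61 and 3.16 in control 1 and, on the opposite strand, 4.30 in control 2. On the spike-in RNA carrying the highest peak, the fold was 8.57 and 8.26 in the controls against 9.52 and 9.83 in the knockouts.

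The genotypes differed in where along the gene the peaks lay: a smaller share of the knockout peaks lay toward gene ends. The gene table gives no exons, so positions run along the whole gene body, introns included. They refer to peaks on the gene's own strand in the 17492 of 21900 protein-coding genes whose strand the tables give. The last 10% of the gene body held 23.5% of such summits in control 1 and 22.8% in control 2, against 16.6% in knockout 1 and 16.8% in knockout 2. The first 10% held 13.7% and 14.3% in the controls against 15.9% and 15.7% in the knockouts. The groups did not overlap in either measure. The difference of means was -6.42 percentage points for the last 10% and 1.83 for the first 10%. With 2 libraries a group, the exact two-sided permutation test cannot go below p = 0.333, which both reached (0.4 after Benjamini-Hochberg adjustment over 6 measures).

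**Figure D1:**
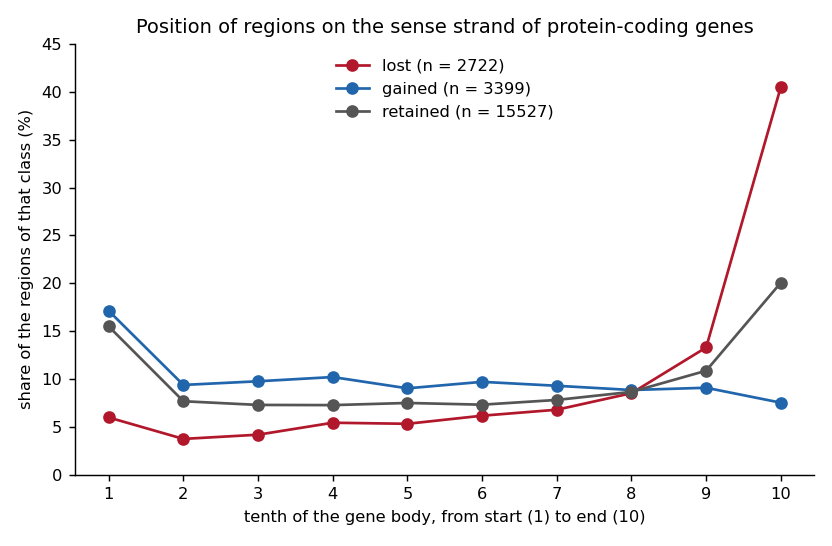
Share of lost, gained and retained regions in each 10% of the gene body, from start to end, for regions on the sense strand of protein-coding genes. The last 10% holds 40.5% of lost, 20.1% of retained and 7.53% of gained regions.

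Lost regions lay toward gene ends in a larger share than retained or gained regions. Among sense regions of protein-coding genes, 1103 of 2722 lost regions (40.5%) lay in the last 10% of the gene, against 3116 of 15527 retained regions (20.1%) and 256 of 3399 gained regions (7.53%). The opposite held at the start: the first 10% held 5.99% of lost, 15.5% of retained and 17.1% of gained regions. Within 1000 bases of the annotated gene end lay 20.6% of lost regions, 10.8% of retained regions and 2.62% of gained regions. Read by place, 22.8% of 4837 control regions in the last 10% were lost, beside 11.7% of 12489 in the middle and 5.86% of 2780 in the first 10%. Gained regions made up 7.12% of the knockout regions in the last 10%, 17.5% in the middle and 16.6% in the first 10%. Over the first 50 bases of annotated transcripts, the controls lost 53 of 1564 regions (3.39%) and the knockouts gained 166 of 1760 (9.43%), both below the shares over all regions.

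The share in the last 10% was also compared by peak strength. When control regions were divided into 5 equal bins of fold rank, 20.4%, 27.0%, 21.1%, 11.2% and 2.18% were lost from the weakest to the strongest bin. In every bin the last 10% of genes held a larger share of lost than of retained regions. In the weakest bin the shares were 44.0% and 15.0%, and in the strongest they were 45.1% of 91 lost and 30.3% of 3883 retained regions. Among knockout regions in the strongest of 5 bins, 188 of 6796 (2.77%) were gained, and of the 100 sense coding ones 3% lay in the last 10% and 8% in the first 10%, beside 17.3% and 14.8% of retained regions. In that bin the gained share of the first 10% was thus below the retained share, unlike over all regions.

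**Figure D2:**
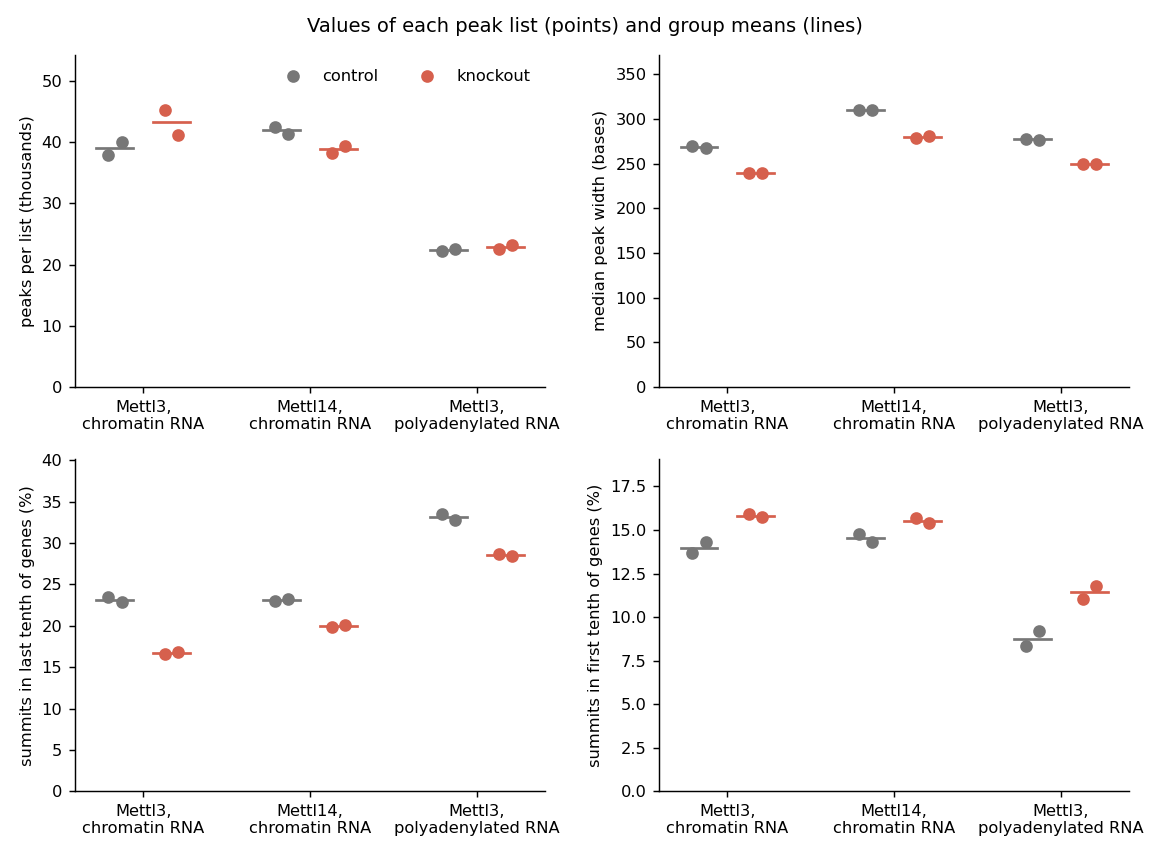
Peaks per list, median peak width and the shares of sense summits in the last and first 10% of protein-coding genes, for each library (points) with group means (lines). In chromatin RNA the last-10% share is lower in both knockouts of Mettl3 and of Mettl14, while the number of peaks is higher in the Mettl3 knockouts (45241 and 41162) and lower in the Mettl14 knockouts (38272 and 39385).

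The knockout lists were longer and made of shorter peaks. Control 1 held 37955 peaks, control 2 held 40090, knockout 1 held 45241 and knockout 2 held 41162. The median width was 270 and 268 bases in the controls against 240 and 239 in the knockouts. Peaks covered 15.1 and 15.9 Mb in the controls against 14.8 and 13.4 Mb in the knockouts, so more peaks covered less RNA. Peaks of 1000 bases or more made up 6.20% and 6.06% of the control lists and 2.94% and 2.78% of the knockout lists. Groups did not overlap in these 4 measures, and p was 0.333, the smallest possible, for the 3 that were tested. Summits outside annotated genes took 7.44% and 7.82% in the controls against 7.95% and 7.53% in the knockouts, which overlapped.

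Regions found in all 4 libraries showed the same dependence on place. In the last 10% of genes, the median width of 3116 retained regions was 521.5 and 522 bases in the controls against 405.5 and 389.5 in the knockouts. Of these regions, 57.9% were narrower in both knockouts than in both controls and 12.8% were wider. In the first 10% the medians were 284 and 296 bases in the controls against 336 and 318 in the knockouts, with 19.3% narrower and 39.0% wider of 2406 regions. In the middle of genes 29.3% were narrower and 33.6% wider. Over all 23821 retained regions the shares were 33.2% narrower and 30.5% wider.

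**Figure D3:**
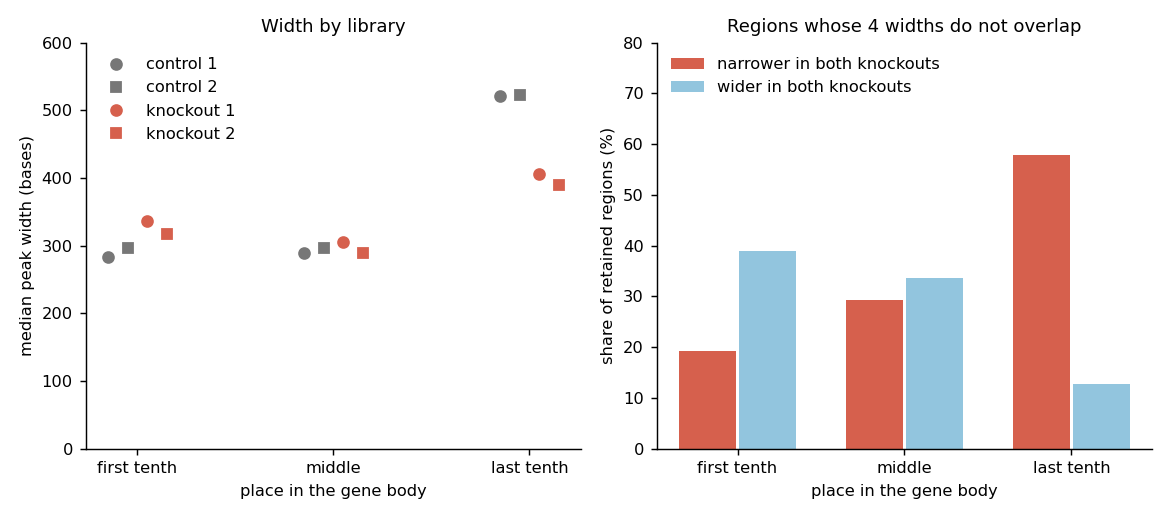
Left, the median width of the peaks of retained regions in each library, by place in the gene. Right, the share of retained regions whose widths in both knockouts lay below, or above, both controls. In the last 10% of genes 57.9% were narrower and 12.8% wider; in the first 10% 19.3% were narrower and 39.0% wider.

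A larger share of antisense than of sense regions was lost, with no test of the difference. Of 1752 control regions antisense to 1 gene, 576 were lost (32.9%), against 2808 of 20490 sense regions (13.7%). Antisense regions were also gained in a larger share, 279 of 1363 (20.5%) against 15.8% of sense regions. Antisense regions made up 17.02% of lost, 7.37% of gained and 5.38% of retained regions with a known gene strand. Of the 576 lost antisense regions, 347 (60.2%) had a peak on the opposite strand at the same place, and 307 lay opposite a retained region. Of the retained antisense regions, 57.7% had one. The part of peaks mirrored from the opposite strand in these counts was not tested. Without antisense regions, 4727 regions were lost and 5477 gained. Regions outside genes were lost in 24.9% and gained in 26.0% of cases, and regions in long noncoding RNA genes in 21.6% and 24.5%.

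Named lost genes had clear peaks in both controls and none in either knockout. The 25 with the highest lower fold ranged from 7.66 to 15.7. Slc25a10, which encodes the mitochondrial dicarboxylate carrier, had 11.9 in control 1 and 15.7 in control 2, from a peak at chr11:120498463-120499640. The homeobox gene Gbx2, a target of LIF signalling that supports naive pluripotency, lost all 3 of its regions. Of the 3, 1 was antisense and lay opposite a lost sense region. Its best peak, chr1:89928276-89929191 at 81.2% of the gene, had 10.3 and 12.5. Sox13, an HMG-box transcription factor gene, had 9.40 and 10.1 at 97.0% of the gene. All 3 were at no peak in knockout 1 and knockout 2 and were retained in the Mettl14 comparison.

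Genes of the mitochondrion, signalling and membrane biology stood among the same 25. Mrpl50, a mitochondrial ribosomal protein gene, had 9.27 and 13.1 in the controls, and Ybey, a mitochondrial ribosomal RNA processing gene, had 8.45 and 10.4. Mmab, a cobalamin adenosyltransferase gene, had 9.16 and 8.46. Dapp1, which encodes a phosphoinositide-binding adaptor, had 9.63 and 10.9 at 96.4% of the gene, and Itpka, an inositol trisphosphate kinase gene, had 8.30 and 9.72 at 96.6%. The controls were close to each other for the innate immune sensor gene Sting1, with 8.61 and 7.77, and for Pigv of GPI anchor synthesis, with 8.68 and 7.78. The others were Tcf19, Nrg2, Bloc1s3, Dnal4, Spata21, Zfp846, Trp53i13, Fam83e, Aqp11, Nt5c3, Slc2a7, Tas1r1, Lrrc29, Zfp760 and Nkx2-4. The best peak was sense in 20 of the 25 genes and lay in the last 10% of the gene in 8 of these. That of 1, Spata21, was antisense, and for 4 the gene strand, and so the place, was not known. Of all lost sense regions in coding genes, 40.5% lay in the last 10%. In the Mettl14 knockout comparison of chromatin RNA 18 of the 25 were retained and 2, Trp53i13 and Itpka, were lost. Of all lost regions, rather than genes, 57.9% were retained there and 456 of 5303 lost. The shares over all genes are not given here.

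Named gained genes had peaks in both knockouts and none in a control, with folds from 6.33 to 10.4. The tetraspanin gene Tspan1 had 10.4 in knockout 1 and 9.95 in knockout 2, at chr4:116165703-116166140. Slc7a11, which encodes the cystine transporter xCT, had 9.56 and 6.85 at 62.0% of the gene, and the mitochondrial ribosomal protein gene Mrpl47 had 7.68 and 9.39. Mgll, a monoglyceride lipase gene, had 7.29 and 8.92 on the antisense strand. Tgfbr3, the TGF-beta coreceptor gene, had 7.68 and 6.93, and the germ cell helicase gene Ddx4 had 6.33 and 7.66. The others were Ptprt, Plekha3, Eaf2, Tmc1, Acoxl, Iqce, Celf3, Baiap2l1, Abcb5, Abhd16a, Fndc7, Pth2r, Wdr49, Sp100, Fam102b, Cd59a, Amot, Iqca1l and Mtx3. The best peak was sense in 16 of the 25 and in none of these in the last 10% of the gene, and it was antisense in 5. For the other 4 the gene strand, and so the place, was not known. In the Mettl14 comparison 9 had no peak in any library, 5 were gained and 4 were retained.

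**Figure D4:**
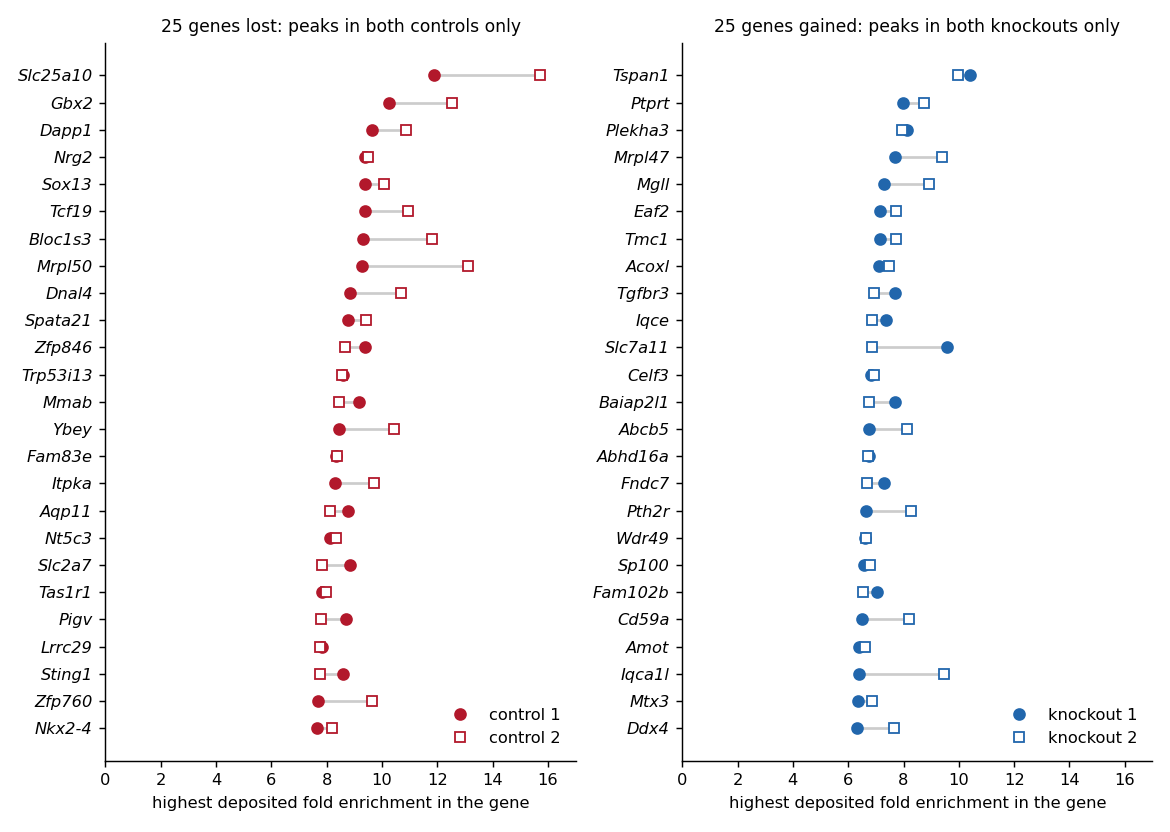
Highest deposited fold enrichment in each of the 25 lost genes (left, control 1 and control 2) and the 25 gained genes (right, knockout 1 and knockout 2) with the highest lower fold. No points are drawn for the other genotype, which had no peak; lost genes range from 7.66 to 15.7 and gained genes from 6.33 to 10.4.

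Lost regions mostly sat in genes that kept other peaks. Of the 4320 lost regions in 1 gene alone, 77.5% lay in genes that were retained as a whole, as did 84.8% of 4817 gained regions. The share over all regions is not given here. Gene calls varied with the number of regions: retained coding genes had a median of 4. By contrast 68.3% of lost and 52.0% of gained coding genes had 1 region. The RNA helicase gene Ddx39a lost the region chr8:83722343-83722794, with folds of 17.8 in control 1 and 13.0 in control 2, on the minus strand. Inpp5e, a phosphoinositide phosphatase gene, lost an antisense region with 11.7 and 12.5. Mrpl39 lost a region at 93.3% of the gene with 10.5 and 12.4. Among gained regions, one antisense to the ephrin receptor gene Epha4 had 11.2 in knockout 1 and 10.4 in knockout 2. The SWI/SNF ATPase gene Smarca2 gained a region with 9.12 and 9.24. All these regions had no peak in the other genotype.

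A few genes held many lost or gained regions. Lost regions fell in 3385 genes and gained regions in 3330, and 850 genes had both. Most had 1 such region: 2677 genes for lost and 2356 for gained, while 13 and 45 had 5 or more. Ttn, the titin gene, lost 10 of its 41 regions and retained 18. The 10 had control folds from 2.40 to 7.99 and lay between 66.2% and 99.6% of its body. Gphn, which encodes the synaptic scaffold gephyrin, lost 9 of its 19 regions, gained none and retained 3. The 9 were sense and lay between 19.1% and 45.6% of the gene. Vps13b lost 8 of 29 regions, Alms1 and Lonp1 lost 6 of 17 each and Unc13b lost 6 of 28. All 6 of Lonp1, a mitochondrial protease gene, were antisense. The lost regions of Ttn, Gphn, Vps13b, Alms1 and Unc13b were all retained in the Mettl14 comparison. Of the 6 in Lonp1, 1 was lost there, 4 had no peak and none was retained. Etl4 gained 13 of its 57 regions, and the methyltransferase gene Smyd3 gained 11 of 35 and lost 1. Diaph2 gained 9 of 38 and the cytoskeletal linker gene Macf1 9 of 54.

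The 10 retained genes named were those with the highest lowest fold over the 4 libraries, which favours like values. Arl15, a small GTPase gene, had 30.9 and 28.8 in the controls against 31.7 and 32.9 in the knockouts. Snx4, a sorting nexin gene, had 28.6, 29.7, 25.2 and 27.7 in the same order, and Tenm4 had 28.9, 25.6, 22.8 and 26.9. The spread was wider in Alpk3, with 22.5, 33.8, 21.7 and 25.8, and in Ctnnal1, with 22.2, 28.7, 32.6 and 28.1. Gmeb2, Pid1, Smyd3, Ehbp1 and Dse were the others, none of the 10 with a fold under 21.4. All 10 were also retained in the Mettl14 comparison and in polyadenylated RNA of the Mettl3 lines. Of all retained regions, rather than genes, 67.9% and 45.3% were retained there.

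Genes of the m6A writing machinery kept most of their regions. The writer complex and its cofactors had 6 of 35 control regions lost (17.1%) and 3 of 35 knockout regions gained (8.57%), beside 15.5% lost and 16.3% gained over all regions in 1 gene. Virma, the scaffold subunit that guides the complex to gene ends, lost 3 regions, the strongest with 9.05 in control 1 and 11.5 in control 2 at chr4:11518892-11519407. Wtap lost 1 region with 2.96 and 3.46 at 89.3% of the gene, which was also lost in the Mettl14 comparison and in polyadenylated RNA. Mettl14 was called gained, from a region with 5.53 in knockout 1 and 5.33 in knockout 2. This list had only 2 retained regions in the last 10% of genes. Both were narrower in both knockouts, as were 57.9% of such retained regions over all genes. Near the end of Zc3h13 a retained region spanned 828 and 833 bases in the controls against 483 and 349 in the knockouts. Near the end of Wtap a retained region spanned 568 and 620 bases against 484 and 476.

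Other enzymes and binding proteins of RNA methylation differed in their counts, beside 15.5% lost and 16.3% gained over all regions in 1 gene. Other RNA methyltransferases had 8 of 21 control regions lost and 1 of 13 knockout regions gained. Zcchc4, which methylates ribosomal RNA, lost 3 regions, the strongest with 8.15 and 6.16 at 99.7% of the gene. Mettl6, a transfer RNA methyltransferase gene, also lost 3, and Mettl8 lost its only region, with 4.66 and 6.12 at 99.0%. The m6A readers had 2 of 41 lost and 14 of 65 gained. Fxr2 gained 3 regions, the strongest with 5.21 and 7.64 at chr11:69640082-69640246. Igf2bp1 and Igf2bp2, which encode m6A-binding stabilisers of messages, gained 2 each. Of the 4 retained regions in the last 10% of reader genes, 2 were narrower and 1 wider in both knockouts. Over all genes 57.9% of such regions were narrower and 12.8% wider. At the end of Ythdc1, the nuclear reader, a retained peak spanned 408 and 395 bases in the controls against 184 and 166 in the knockouts. The demethylase genes Alkbh5 and Fto lost 3 regions and 1 region, together 4 of 12, and gained none of 8. In Alkbh5, 1 of the 3 was antisense.

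Pluripotency genes had 23 of 128 regions lost (17.97%) and 12 of 116 gained (10.3%), beside 15.5% and 16.3% over all regions in 1 gene. Of 34 marked in both controls 2 were lost as genes, Gbx2 and Myc, beside 5.9% over all genes. Myc had 2.90 in control 1 and 3.54 in control 2. The zinc finger factor gene Sall4 lost 3 regions, not all on the same strand, with control folds from 3.30 to 4.72. Esrrb lost 4 regions, 3 of them antisense, and Klf4 lost 2, both antisense. The PRC2 cofactor gene Jarid2 gained 5 regions and lost none. Of 14 regions in the last 10% of these genes marked in both controls, 3 were lost, in Esrrb, Il6st and Lin28b. The other 11 were retained, 7 of them narrower in both knockouts and none wider. Over all retained regions in the last 10% of genes, 57.9% were narrower and 12.8% wider. The LIF receptor gene Lifr had a peak of 1131 and 1299 bases in the controls against 938 and 922 in the knockouts. Its coreceptor gene Il6st had 1887 and 1877 bases against 1653 and 1437.

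**Figure D5:**
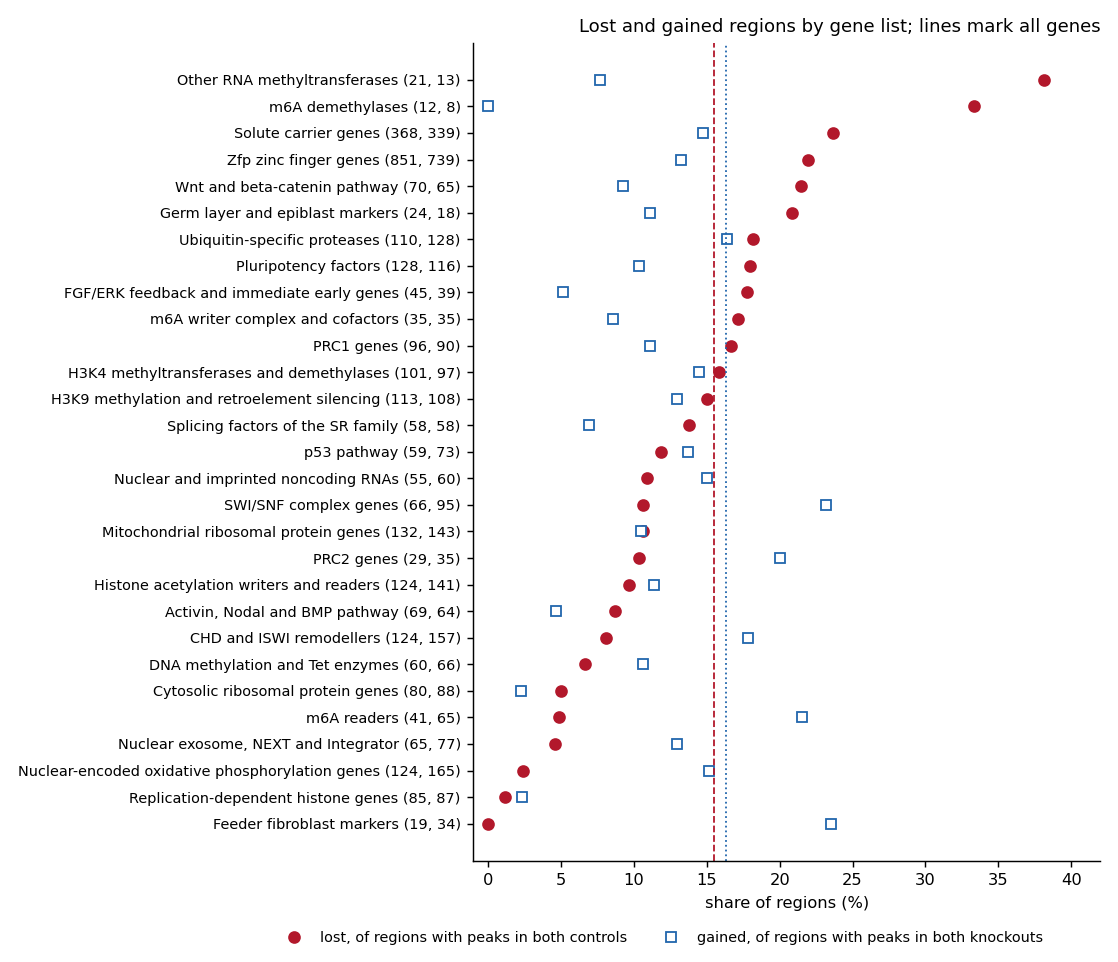
Share of regions lost, of those with peaks in both controls, and gained, of those with peaks in both knockouts, for 29 gene lists, with both denominators in parentheses. Lines mark all regions in 1 gene alone, 15.5% lost and 16.3% gained; other RNA methyltransferases lie highest in lost (38.1%) and feeder fibroblast markers lowest (0 of 19).

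Signalling lists differed in their lost shares, from 8.7% to 21.4% beside 15.5% over all regions in 1 gene. The gained share over all regions in 1 gene was 16.3%. In the FGF/ERK feedback and immediate early list 8 of 45 were lost and 2 of 39 gained. Spred3, an ERK pathway inhibitor gene, had 6.24 and 7.27 in the controls, the ERK phosphatase gene Dusp6 had 5.79 and 6.31 and Dusp4 had 4.19 and 5.20, and none had a peak in a knockout. All 5 of this list's retained regions in the last 10% of genes were narrower in both knockouts, beside 57.9% over all genes. In the Wnt list 15 of 70 were lost and 6 of 65 gained. There, Axin2, a feedback target of beta-catenin, lost a region at 96.1% of the gene with 4.95 and 5.27, and Ctnnb1, which encodes beta-catenin, lost 1 at 96.3% with 3.18 and 2.90. The Wnt receptor gene Fzd3 was lost as a gene, with 6.00 and 5.54. In the Activin, Nodal and BMP list 6 of 69 were lost and 3 of 64 gained. Of its retained end regions 10 of 13 were narrower, beside the same 57.9%.

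Counts in the chromatin regulator lists stand beside the same 15.5% lost and 16.3% gained over all regions in 1 gene. SWI/SNF genes had 7 of 66 lost (10.6%) and 22 of 95 gained (23.2%), and Smarca2 and Smarcc2 gained 4 regions each. CHD and ISWI remodellers had 10 of 124 lost (8.06%) and 28 of 157 gained (17.8%), with 5 gained in Baz2b and 4 in Chd2. PRC1 genes had 16 of 96 lost, 4 of them in Mga, and 10 of 90 gained, and PRC2 genes had 3 of 29 lost and 7 of 35 gained. H3K9 methylation and retroelement silencing genes had 17 of 113 lost, 4 of them in Wiz, and 14 of 108 gained. Histone acetylation writers and readers had 12 of 124 lost and 16 of 141 gained. The histone deacetylase gene Hdac3 was lost, with 2.84 and 3.78 in the controls, and Hdac5 was gained, with 6.20 and 8.12 in the knockouts. At the end of the bromodomain gene Brd3 a retained peak had 14.3 and 15.9 in the controls against 5.30 and 6.09 in the knockouts. Its widths were 384, 441, 362 and 380 bases in the same order. Of the 15 retained regions in the last 10% of the histone acetylation genes, 7 were narrower and 3 wider in both knockouts. Over all genes the shares were 57.9% and 12.8%.

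Widths at gene ends differed among lists. Of 32 retained end regions in nuclear-encoded oxidative phosphorylation genes, 2 were narrower and 17 wider in both knockouts, and of 10 in cytosolic ribosomal protein genes 1 was narrower and 5 wider. Of 17 in mitochondrial ribosomal protein genes 6 were narrower and 2 wider. The oxidative phosphorylation list had 3 of 124 regions lost and 25 of 165 gained, beside 15.5% and 16.3% over all regions in 1 gene. Ndufb1 of complex I was gained as a gene with 4.53 and 3.72 in the knockouts, Ndufb3 with 3.24 and 2.24 and Atp5mpl of ATP synthase with 2.38 and 2.29. Replication-dependent histone genes, whose messages have no poly(A) tail, had 1 of 85 lost and 2 of 87 gained. By contrast Zfp zinc finger genes had 187 of 851 lost and 98 of 739 gained, and 76 of their 94 retained end regions were narrower and 4 wider. Solute carrier genes had 87 of 368 lost and 50 of 339 gained, with 25 of 31 retained end regions narrower and 1 wider. Beside the 57.9% narrower over all retained end regions, the zinc finger and solute carrier lists lay above and the oxidative phosphorylation list below. No difference between lists was tested.

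The counts of the remaining lists stand beside 15.5% lost and 16.3% gained over all regions in 1 gene. Over all genes, 5.9% were lost and 5.01% gained. Nuclear exosome, NEXT and Integrator genes, which clear chromatin RNA, had 3 of 65 lost and 10 of 77 gained. DNA methylation and Tet genes had 4 of 60 and 7 of 66, H3K4 enzymes 16 of 101 and 14 of 97, and SR splicing factors 8 of 58 and 4 of 58. The p53 list had 7 of 59 lost and 10 of 73 gained, with Sesn3 gained as a gene at 4.43 and 3.97. Mitochondrial ribosomal protein genes had 14 of 132 and 15 of 143, cytosolic ones 4 of 80 and 2 of 88, and ubiquitin-specific proteases 20 of 110 and 21 of 128. Germ layer genes had 5 of 24 lost and 2 of 18 gained. Gata4 of endoderm was lost at 5.37 and 3.67 and Zic5 at 8.19 and 4.59. Feeder fibroblast markers had 0 of 19 lost and 8 of 34 gained. As genes, 4 of the 13 marked in both knockouts were gained, beside 5.01% over all genes. These were Acta2, Mmp2, Thy1 and Col6a1, with Acta2 at 5.46 and 7.56. The counts of marked feeder genes above moved with genotype and their part in other gained genes was not tested.

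Nuclear and imprinted noncoding RNAs had 6 of 55 regions lost (10.9%) and 9 of 60 gained (15.0%), beside 15.5% and 16.3% over all regions in 1 gene. Malat1 had 4 retained regions, and its highest fold on either strand was 6.25 and 9.58 in the controls against 13.5 and 10.9 in the knockouts. Neat1, the paraspeckle RNA, had 3 retained regions and gained 1 with 2.82 and 2.85. Tug1 lost 1 region with 7.82 in control 1 and 5.69 in control 2 and retained 2. The imprinted RNAs Meg3 and Rian gained 2 regions each, as their neighbour Mirg gained 1. Firre lost 1 region at 96.9% of the gene with 2.13 and 3.69.

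Most lost regions were marked in the separate Mettl14 lines as well. Of 5303 lost regions, 4039 (76.2%) had a peak in both Mettl14 controls, beside 71.9% of retained and 48.3% of all regions. Of these 4039, 456 (11.3%) were lost in the Mettl14 knockout. Of the retained regions marked in those controls, 314 of 17117 (1.83%) were lost there, and over all regions 6.10%. Regions gained here and marked in those controls were lost there in nearly the same share as lost regions, 59 of 570 (10.4%). Retained in the Mettl14 comparison were 57.9% of the lost regions, beside 67.9% of retained and 41.6% of all regions. The 458 regions lost here that met a region lost there were 8.64% of the 5303, and the matching 456 were 8.19% of the 5568 lost with Mettl14. Of the regions lost in both lines, 258 were sense regions of coding genes and 54.3% of these lay in the last 10%. Of the 456, 31 were also lost in polyadenylated RNA of the Mettl3 lines, where the Mettl3 knockout and control lists again had fewer end peaks in the knockouts (28.6% and 28.4%, against 33.4% and 32.8%).

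The gained regions were mostly absent from the other lists. Of 5756 gained regions, 3718 (64.6%) had no peak in any Mettl14 library of chromatin RNA, against 11.9% of retained and 34.6% of all regions. Of the 998 marked in both Mettl14 knockouts, 354 (35.5%) were gained there, beside 7.76% of all regions so marked. In polyadenylated RNA of the Mettl3 lines, 86.5% of gained and 57.5% of lost regions had no peak, beside 59.4% of all regions. Where lost regions were marked in both controls of that RNA, 346 of 1600 (21.6%) were lost there too. The share was 10.4% of gained, 4.81% of retained and 8.27% of all regions so marked. The Mettl14 chromatin lists differed in the number of peaks: 42514 and 41315 in the controls against 38272 and 39385 in the knockouts, the opposite direction to Mettl3. The difference between the 2 effects was 7265 peaks, with p = 0.0556 in the exact permutation of labels within each line, the smallest possible, and 0.333 after adjustment over 6 measures. For the last-10% share, which was 22.9% and 23.2% in the Mettl14 controls and 19.9% and 20.1% in the Mettl14 knockouts, the difference of effects was -3.33 percentage points (exact p = 0.389, adjusted 0.533).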

How the data were processed

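m6A peak lists of 4 chromatin RNA libraries (2 control and 2 Mettl3 knockout) were analysed, with 8 further lists for comparison. The authors deposited 1 stranded list per library, with replicates not pooled. Each deposited fold is a ratio of enrichment over background, and the deposited −log10 p and q values are the caller's significance, with a lowest −log10 q of 2.00 to 2.02 per list. Per the submitters' processing notes, the build was mm10 and the tools CASAVA, Trimmomatic 0.38, HISAT2 2.1.0 and SAMtools 1.9. The peak caller is not given in the sources used here, nor are its settings and the depths, so no counting interval was possible. Folds describe and rank peaks within a list.

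Spike-in peaks were set aside. Regions and calls were made as stated above, in Python 3.11.15 with pandas 2.3.3, numpy 2.4.6 and scipy 1.17.1. Genes, strands and start windows came from RefSeq tables of GRCm38.p6, the assembly of mm10, with 49980 placed genes. A summit was assigned to a gene where it lay in the body of that gene alone, and a gene call needs no single shared region. Region calls carry no test. The 6 library measures were tested by exact permutation over the 4 libraries. The merging and permutation steps were checked on simulated lists. Named genes were the 25 lost, 25 gained and 10 retained with the highest lower fold, the 10 with most lost or gained regions, the 10 strongest lost and gained regions, and called members of gene lists, leaving out predicted genes; 1 gained region is not reported here. Members and lists were chosen with earlier results of these data known. Other genes named in the text for a region or width were chosen after their values were seen. Alternatives covered overlap, threshold, list length, strand and each library left out.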

Additional observations from a re-analysis of the deposited data

Results flagged for a closer look

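The number of peaks moved in opposite directions in the lines. Both Mettl3 knockouts had more chromatin RNA peaks than both controls and both Mettl14 knockouts had fewer than theirs, a difference of effects of 7265 peaks (exact permutation p = 0.0556, adjusted 0.333). Depth is unknown for all lists and its part was not tested.

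Signal on spike-in RNA lay outside the comparisons. Spike-in RNA 1 had 3 peaks on the minus strand in the knockouts, 2 in knockout 1 and 1 in knockout 2, and none in the controls. Their highest folds were 2.87 and 2.98. The other spike-in strands with peaks had them in all 4 libraries.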

How the results depend on the processing

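The replicate numbers did not pair the libraries: over 23821 retained regions, the log2 fold deviations of same-numbered libraries had r = -0.0063. With the number as a replicate block, mean differences were unchanged by construction and the exact sign-flip test over 2 pairs gave p = 0.5, the smallest it allows, for 5 of 6 measures and 1 for summits outside genes. Knockout minus control was -6.84 and -6.01 percentage points in the pairs for the last-10% share. Calls of regions and genes come from no test and take no block. Stricter thresholds, shorter lists and left-out libraries could not end the call of the 25 named lost and 25 named gained genes, given how these were chosen. With sense summits only, 20 and 17 kept it, and 5 and 7 could not be assigned. In all 12 settings the last 10% of genes held a larger share of lost than of retained, and of retained than of gained, regions. With the 20000 strongest peaks, 2815 regions were gained and 10932 retained, 938 genes were lost and 6160 retained, and the last-10% shares were 43.2% of lost, 5.94% of gained and 19.1% of retained regions. The last-10% shares were 12.0% of gained and 18.4% of retained regions when summits within 100 bases were matched, and 19.2% of retained regions with lists of equal length. Sense summits only, an alternative chosen after seeing the data, gave 329 gained genes. Of lost regions marked in both Mettl14 controls, the share lost there, 11.3% as reported, was 9.90% with the 20000 strongest peaks, 9.94% at a fold of at least 3 and 8.53% with equal lengths. The difference in summits outside genes, whose groups overlapped, was 0.107 percentage points and turned to -0.0408 with equal lengths. Leaving out 1 library gave -0.103 to 0.317 for it, 6445 to 8551 lost, 7519 to 11976 gained and 24999 to 26595 retained regions, 779 to 974 lost and 665 to 924 gained genes, and last-10% shares of 36.5% to 39.8%, 7.50% to 8.64% and 18.9% to 20.9% for lost, gained and retained regions. Of 696 recomputed shares of gene lists, 96 moved. The cause of these moves was not tested. Merging overlap and merging strand cannot alter gene calls, which use summits, and positions were not recomputed with strand ignored.

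Depth is unknown, so how far a missing peak lies under the threshold is not known, and the exact permutation of 2 libraries a group within 1 comparison allows no p under 0.333. Folds carry no error of their own. Without exons, an end of a gene body is not a 3′ untranslated region.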
